A study of Mus musculus with 8 samples.

Results

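The genes Nr1d1, Nr1d2 and Rora encode nuclear receptors of the circadian clock. They were chosen by the measured values of the comparison of SOD1G93A with wild-type nerves, so their differences in that comparison are a description and carry no test. The array's design covers these 3 of its 34821 gene names with 5 of its 55681 probes, and all 5 probes are described. Of these, 4 probes, covering all 3 genes, passed the filter on dim signal, which asked that a probe be well above background in the nerve channel on 4 or more of the 8 arrays. Over the whole array, 19838 probes and 15343 gene names passed it.

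RNA of sciatic nerves from male mice, 60 days old, was hybridised to Agilent 2-colour arrays, 1 array for each of 4 SOD1G93A mice and 4 wild-type mice. SOD1G93A mice carry a mutant human SOD1 transgene and model amyotrophic lateral sclerosis, and by the series title they had no symptoms yet. Nerve RNA carried Cy3 on all arrays, and a common pool of RNA from heart, liver and kidney of SOD1G93A and wild-type neonates carried Cy5. The labels call the mice of a group biological replicates, give no promoter or copy number of the transgene and give no time of day at which nerves were taken. Whether that time differed between the genotypes is thus not known, and its part in the differences below was not tested. No dye was swapped. The 8 arrays shared 1 slide and 1 scan. Each genotype had its own first position number on that slide, so genotype and position cannot be told apart. On the first principal component over genes, with 36.4% of the variance, SOD1G93A replicate 1 (-30.3) and wild-type replicate 1 (33.7) stood at the ends, and values without these arrays are given with the clock genes.

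Nr1d1 (REV-ERB alpha) and Nr1d2 (REV-ERB beta) are haem-binding repressors that recruit NCoR and histone deacetylase to a DNA sequence called the ROR response element. Rora (ROR alpha) is an activator that binds the same element. In the clock of most tissues, the activators CLOCK and BMAL1 (BMAL1 is encoded by Arntl) drive transcription of Nr1d1 and Nr1d2 through E-boxes, and the REV-ERB proteins in turn repress Arntl, which closes a feedback loop. The level of Nr1d1 mRNA is therefore strongly rhythmic over the day in many tissues, while Rora mRNA cycles little in most of them.

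Each array probe is an oligonucleotide of 60 bases. The Nr1d1 probe is shown whole because the largest difference among the 3 genes rests on it alone. The probes of Nr1d2 are shown by their first 30 bases because the files place them on different chromosomes, and the kept Rora probe is shown in the same way.
Nr1d1 A_51_P223776: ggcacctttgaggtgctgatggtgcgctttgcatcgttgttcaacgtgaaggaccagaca
Nr1d2 A_55_P2148534: ctgtgaggggagctcagatagatgtatctt
Nr1d2 A_52_P303891: ccagaactgttagtattgcttgtgatgctt
Rora A_55_P2078123: gcgcccgagcacttctagaacatctggagt

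On mouse build mm9, the files place the Nr1d1 probe at chr11:98630526-98631028 on the minus strand, against transcript NM_145434. That span of 503 bases is longer than the probe, so the probe joins exons. Of the Nr1d2 probes, A_52_P303891 lies at chr14:19037253-19037312 on the minus strand, against NM_011584, while A_55_P2148534, the brighter, is placed at chr19:40271435-40271494 on the plus strand, against the cDNA BC096461. The longest run of bases that these probes had in common was 6. The kept Rora probe lies at chr9:69226774-69226833 on the plus strand, against NM_013646, and the other Rora probe, A_55_P2068006, at chr9:68511835-68511894 on the same strand, against an Ensembl transcript. Between a probe of the 3 genes and any probe of another gene on the array, in either orientation, the longest shared run was 13 bases for Nr1d1, 13 and 16 for the Nr1d2 probes, and 16 and 17 for the Rora probes.

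The bases before the transcription start are shown for the REV-ERB genes because they carry clock elements in many tissues. RefSeq promoter sequences on build GRCm38.p6 were searched for the E-box CACGTG, the E′-box CACGTT, the receptor half-site AGGTCA, the D-box TTATGNAA and the cAMP response element TGACGTCA, on both strands, in the 250 bases before each start. The Nr1d1 sequence is chr11:98775378-98775627 and the Nr1d2 sequence chr14:18239107-18239356, each on the minus strand, and matches are in capitals.
Nr1d1 promoter: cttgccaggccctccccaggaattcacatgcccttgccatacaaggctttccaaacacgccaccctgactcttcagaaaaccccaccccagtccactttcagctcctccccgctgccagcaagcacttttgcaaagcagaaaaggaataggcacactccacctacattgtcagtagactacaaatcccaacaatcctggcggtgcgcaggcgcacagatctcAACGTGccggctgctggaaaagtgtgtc
Nr1d2 promoter: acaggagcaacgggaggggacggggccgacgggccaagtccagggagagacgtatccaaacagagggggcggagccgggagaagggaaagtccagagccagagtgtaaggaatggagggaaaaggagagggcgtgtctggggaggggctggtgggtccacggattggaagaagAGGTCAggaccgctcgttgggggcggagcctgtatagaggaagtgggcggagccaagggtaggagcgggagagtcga

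The Nr1d1 window held 1 match, an E′-box on the opposite strand that begins 28 bases before the start. The Nr1d2 window held 1 match, a receptor half-site that begins 77 bases before the start, and the Rora window held none of the 5 motifs. No match overlapped another. Of 32851 mouse promoters searched in the same way, 6.02% held the E-box, 3.85% the E′-box, 14.02% the half-site, 3.07% the D-box and 1.55% the cAMP response element. A match describes the letters only, and no binding was measured.

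The values below are log2 ratios of nerve over pool. The Nr1d1 probe gave 0.16, 0.55, 0.51 and 0.49 in SOD1G93A replicates 1 to 4, against 2.16, 1.94, 2.11 and 1.85 in wild-type replicates 1 to 4. All SOD1G93A arrays lay below all wild-type arrays, with a gap of 1.30 between the closest arrays, which is wider than the spread within either group. The mean was 0.43 ± 0.18 in SOD1G93A nerves and 2.02 ± 0.15 in wild-type nerves (SD, n = 4 each), a difference of -1.59 ± 0.11 (SE). Nr1d1 signal in SOD1G93A nerves was thus 33.2% of that in wild-type nerves, relative to the pool.

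Nr1d2 was lower in SOD1G93A nerves by each of its probes. The brighter probe, A_55_P2148534, gave -0.46, -0.67, -0.62 and -0.64 in SOD1G93A nerves, against 0.45, 0.39, 0.60 and 0.59 in wild-type nerves. The groups did not overlap, and the signs were opposite, so that Nr1d2 was below the pool in every SOD1G93A nerve and above it in every wild-type nerve. The difference was -1.11 ± 0.09 (SE), which put Nr1d2 signal in SOD1G93A nerves at 46.5% of that in wild-type nerves. Probe A_52_P303891 gave -0.27, -0.47, -0.64 and -0.56 in SOD1G93A nerves and 0.48, 0.47, 0.46 and 0.59 in wild-type nerves, a difference of -0.98 ± 0.09 (SE) that again left no overlap.

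The Nr1d2 probes thus gave nearly the same result, although the files place them on chromosomes 19 and 14. The value of the chromosome 19 probe minus that of the chromosome 14 probe averaged -0.11 ± 0.10 in SOD1G93A nerves and 0.01 ± 0.10 in wild-type nerves (SD, n = 4 each). The nearest kept gene probe with a symbol to the chromosome 19 position was that of Pdlim1, a PDZ and LIM domain protein, 25404 bases away on the other strand, with a difference of -0.34. Whether the chromosome 19 position in the files is right was not tested, since no genome sequence was used here.

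Rora moved far less. Its kept probe gave 0.30, 0.26, 0.17 and 0.27 in SOD1G93A nerves and 0.44, 0.34, 0.57 and 0.47 in wild-type nerves. The groups did not overlap, but the gap was only 0.04. The difference was -0.21 ± 0.08 (SE), which left Rora signal in SOD1G93A nerves at 86.5% of that in wild-type nerves. The other Rora probe, A_55_P2068006, was not well above background on any of the 8 arrays, and its values overlapped, with -0.13 to 0.03 in SOD1G93A nerves and -0.14 to 0.11 in wild-type nerves. It gives no measure of its transcript.

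**Figure D1:**
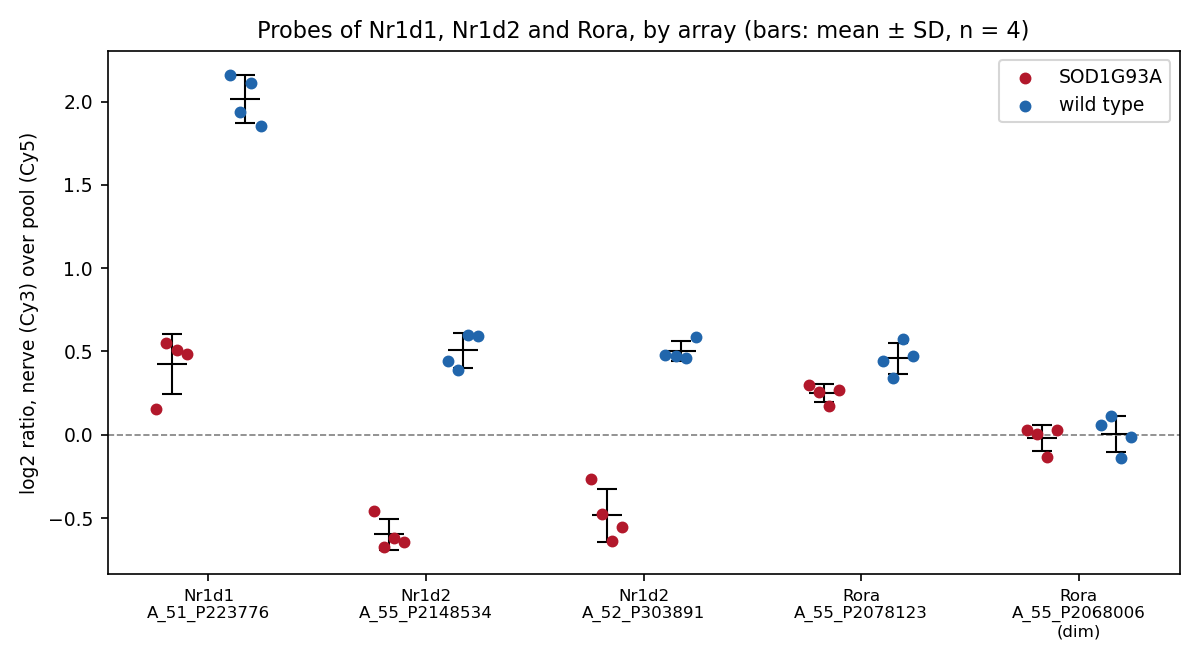
Log2 ratio of nerve (Cy3) over pool (Cy5) for the 5 probes of Nr1d1, Nr1d2 and Rora, with SOD1G93A arrays in red at the left and wild-type arrays in blue at the right of each probe; points are arrays, and bars are mean ± SD (n = 4). The groups are far apart for Nr1d1 and both Nr1d2 probes, close but not overlapping for the kept Rora probe, and mixed for the dim Rora probe.

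Among all genes, few were called different between genotypes. At a limma adjusted p under 0.05, 25 of 15343 genes (0.163%) were called, 14 lower (0.0912%) and 11 higher (0.0717%) in SOD1G93A nerves. Without SOD1G93A replicate 1 the count was 180, and without any other single array it was 3 to 16. At the level of single probes, 34 of 19838 (0.171%) were called. All SOD1G93A arrays lay below all wild-type arrays for 4.32% of the genes with a value on every array, and above them for 3.66%. The kept probes of all 3 genes lie among that 4.32%, but the genes were chosen from this contrast, so nothing is read from the count.

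In the order of the 15343 differences, counted from the lowest, Nr1d1 was at place 21, Nr1d2 at place 57 and Rora at place 2120. The spread of Nr1d1 within groups, 0.16, was that of a typical gene, whose median was 0.16. For Nr1d2 (0.10) and Rora (0.08) it was smaller. Nr1d1 therefore differed by 9.70 within-group SDs, Nr1d2 by 11.1 and Rora by 2.72, taken without sign.

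**Figure D2:**
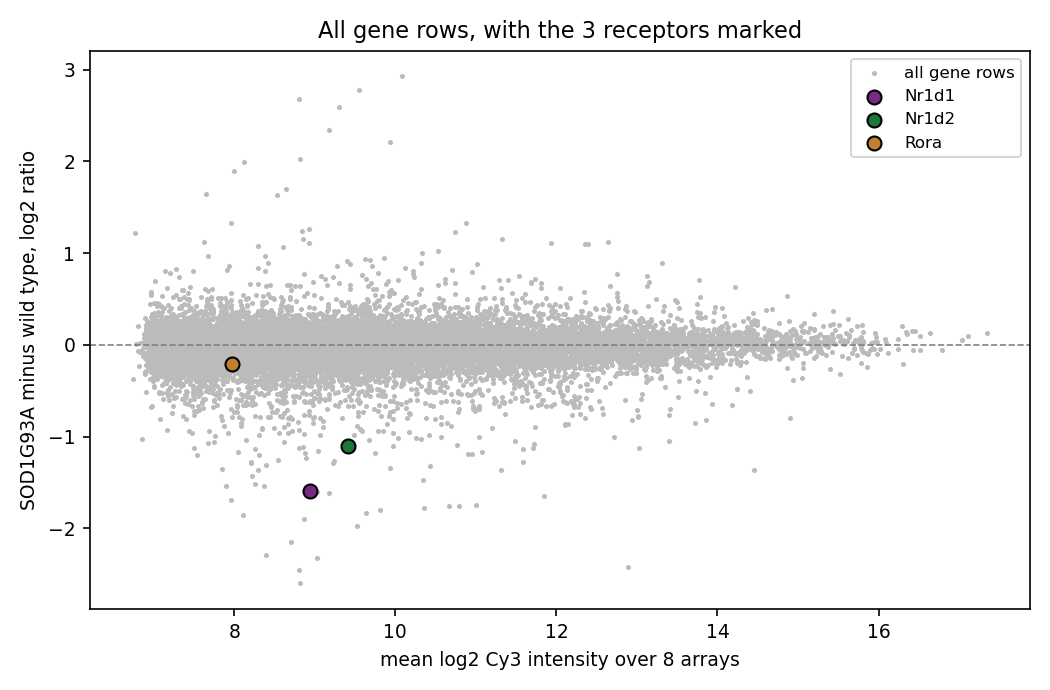
Difference in log2 ratio, SOD1G93A minus wild type, for 15343 gene rows in grey against their mean log2 Cy3 intensity over the 8 arrays, with the 3 receptors marked. Nr1d1 at -1.59 and Nr1d2 at -1.11 lie below the main body of genes, and Rora at -0.21 lies within it.

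Rorb (ROR beta), a relative of Rora known from retina and brain, was not well above background on any array with either of its probes.

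The level over the pool within each genotype uses the same ratios that chose the genes, so it is given as a description with no test. In SOD1G93A nerves, Nr1d1 stood above the pool by 0.43 and Rora by 0.25, while Nr1d2 stood below it, at -0.60. In wild-type nerves, Nr1d1 stood above the pool by 2.02, Nr1d2 by 0.51 and Rora by 0.46. Levels away from the pool are common: 77.5% of genes in SOD1G93A nerves and 76.8% in wild-type nerves differed from 0 at a limma adjusted p under 0.05.

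The same levels can be given as places among all genes. In SOD1G93A nerves, 30.4% of genes stood higher over the pool than Nr1d1, against 4.16% in wild-type nerves. For Nr1d2 the shares were 80.7% in SOD1G93A and 27.5% in wild-type nerves, and for Rora 39.4% in SOD1G93A and 29.5% in wild-type nerves. These ratios hold any dye bias, since no dye was swapped, and 1 pool has no spread of its own. The direction of all 6 values was the same with the scanner's processed signals, with the series table and with scaling between arrays, but their size was not. With the processed signals, Nr1d1 stood above the pool by 0.85 in SOD1G93A and 2.59 in wild-type nerves, and Rora by 0.57 in SOD1G93A and 0.82 in wild-type nerves.

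The dyes can also be read apart. After normalization of each channel, the log2 Cy3 intensity of the Nr1d1 probe was 7.71 ± 0.26 in SOD1G93A nerves and 9.53 ± 0.23 in wild-type nerves (SD, n = 4 each). That difference, -1.82, was a little larger than the one in the ratio. The brighter Nr1d2 probe differed by -1.10 in Cy3 and the kept Rora probe by -0.30. As raw signal, mean intensity minus local background, the Nr1d1 probe read 142.5, 287.9, 292.7 and 270.0 in Cy3 in SOD1G93A nerves, against 1382, 785.1, 1053 and 789.0 in wild-type nerves. SOD1G93A replicate 1, the lowest, also had the lowest median Cy3 intensity over kept spots, 377, where the other 7 arrays had 535 to 734.

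The Cy5 channel holds the same pool on every array, and it is the lower part of the ratio that chose the genes, so its values are given with no test. The Nr1d1 probe gave a log2 Cy5 intensity of 7.28 ± 0.09 on SOD1G93A arrays and 7.51 ± 0.09 on wild-type arrays (SD, n = 4 each), a difference of -0.23 ± 0.06 (SE). Of all genes, 1.17% had a larger shift in Cy5, and 0.215% were called in that channel. In raw Cy5 signal over background, the probe read 65.3 to 80.3 on SOD1G93A arrays and 92.3 to 104.7 on wild-type arrays, without overlap. The pool channel of Nr1d1 thus moved the same way as the nerve channel, and the ratio is the smaller for it. Its cause was not tested. For Nr1d2 the Cy5 difference was 0.003 ± 0.045 (SE) and for Rora -0.09 ± 0.05 (SE).

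**Figure D3:**
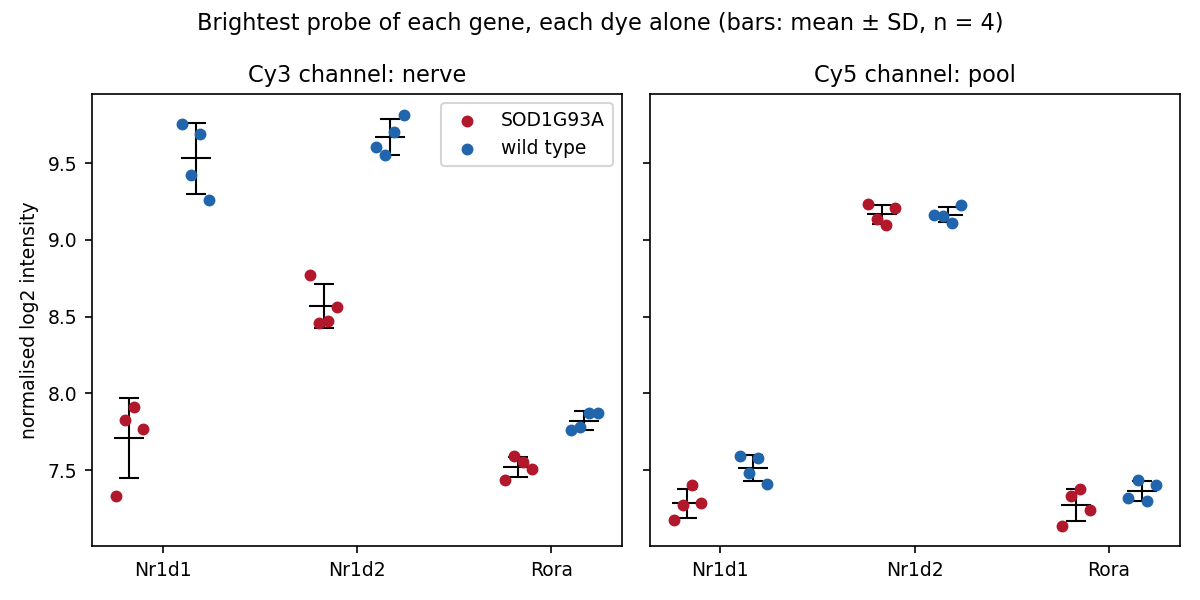
Normalised log2 intensity of the brightest probe of each gene in the nerve channel (Cy3, left panel) and in the pool channel (Cy5, right panel), SOD1G93A arrays in red left of wild-type arrays in blue, with mean ± SD (n = 4); levels of different probes cannot be compared. The groups separate in Cy3 for all 3 genes, while in Cy5 they lie close together for Nr1d2 and Rora and are shifted by -0.23 for Nr1d1.

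Probes near Nr1d1 on the chromosome did not share its difference. Thra, the thyroid hormone receptor alpha gene, ends close to Nr1d1 on the opposite strand, and its probes, 4170 and 13051 bases from the Nr1d1 probe, differed by -0.06 and -0.02. A kept probe named TC1676666, 1140 bases from the Nr1d1 probe on the opposite strand, differed by 0.19.

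REV-ERB and ROR receptors are known to control part of the clock through the ROR response element. Of 5 such clock genes, 3 were measured, and 1 of them, Arntl, passed the test. The values of all 3 were higher in SOD1G93A nerves, with no overlap between groups. Of all genes 0.0717% were called higher, and of those with a value on every array 3.66% were higher without overlap. This list too was chosen with earlier results of these data known. Arntl gave 0.26, 0.97, 0.90 and 0.76 in SOD1G93A nerves, against -0.31, -1.33, -0.94 and -1.06 in wild-type nerves. It rose by 1.63 ± 0.23 (SE, limma adjusted p = 0.0427), a call kept in 9 of 19 alternative settings. With 1 array left out the call held without either array numbered 1, and was lost without any other array (adjusted p up to 0.157). Nfil3, a basic leucine zipper repressor that competes at D-boxes, gave -0.81, 0.13, 0.14 and 0.29 in SOD1G93A nerves and -1.18, -1.55, -2.17 and -2.12 in wild-type nerves. Its difference was 1.69 ± 0.28 (SE, adjusted p = 0.068). SOD1G93A replicate 1 lay closest to wild type, and without it the difference was 1.94 (adjusted p = 0.0084). Without any other single array Nfil3 was not called (adjusted p = 0.075 to 0.217). Clock, the partner of BMAL1, averaged 0.93 ± 0.12 in SOD1G93A nerves and 0.38 ± 0.16 in wild-type nerves (SD, n = 4 each), a difference of 0.55 ± 0.10 (SE, adjusted p = 0.0991). Npas2, a relative of Clock, and Cry1, a repressor of CLOCK and BMAL1, were too dim to be measured.

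Other clock genes are known to be driven through E-boxes or D-boxes, as Nr1d1 and Nr1d2 are. Of 10 in the list, 8 passed the filter on dim signal, and 7 of these were well above background in both groups. The values of all 7 were lower in SOD1G93A nerves without overlap, and 3 passed the test. Their median difference was -0.77, where the median of all genes was -0.02. Of all genes 0.0912% were called lower, and of those with a value on every array 4.32% were lower without overlap. The list was chosen with earlier results of these data known. Dbp, a D-box activator, fell by 2.42 ± 0.10 (SE, adjusted p = 1.49e-05) and its relative Tef by 0.77 ± 0.09 (SE, adjusted p = 0.0337). Cry2, a repressor of the clock that is named after its values were seen, fell by 0.61 ± 0.08 (SE, adjusted p = 0.0427).

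Of 19 alternative settings, Dbp kept its call in 19, Tef in 10 and Cry2 in 8. With 1 array left out, Tef lost its call without SOD1G93A replicate 2, 3 or 4 or wild-type replicate 1, 2 or 3 (adjusted p up to 0.154), and Cry2 without any array but SOD1G93A replicate 1 (adjusted p up to 0.155). The other kept probe of Cry2 differed by -0.38, and with the mean over both probes the difference was -0.50 (adjusted p = 0.177).

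Ciart, a further clock repressor named after its values were seen, passed the filter through the wild-type arrays alone. On all 4 SOD1G93A arrays it was not well above background, so its value is a bound and it is not counted above. Its intensity was at least 1.504-fold lower in SOD1G93A nerves, with a mean log2 Cy3 intensity of 5.99 in SOD1G93A and 7.16 in wild-type nerves. This bound was not tested. The bound was taken at the dimmest probe well above background on each array. Per2 and Bhlhe41 were too dim to be measured.

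The placing of these genes in lists rests on their known roles and not on letters found here. Of 10 RefSeq promoters of the E-box and D-box list, 5 held the E-box CACGTG and 2 the D-box, and of 8 promoters of the ROR element list 2 held the half-site AGGTCA. These are counts of promoters and not of genes, since a gene can have more than 1, and 2 of those with the E-box belong to Tef. Of all promoters searched, 6.02% held the E-box, 3.07% the D-box and 14.02% the half-site.

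These directions were also seen without the arrays numbered 1, which stand apart from the rest. With the 6 arrays numbered 2 to 4, chosen after seeing the data, all 3 ROR element genes were again higher, 2 of them called, and all 7 E-box and D-box genes lower, 6 of them called. Over all genes, 234 were called on these 6 arrays. On the same arrays, Nr1d1 differed by -1.45, Nr1d2 by -1.17 and Rora by -0.23. With the scanner's processed signals, 0 of the 3 and 1 of the 7 were called, and the directions were the same. In that setting, 7 genes were called over all genes. Scaling between arrays and Cy3 alone also gave these directions.

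**Figure D4:**
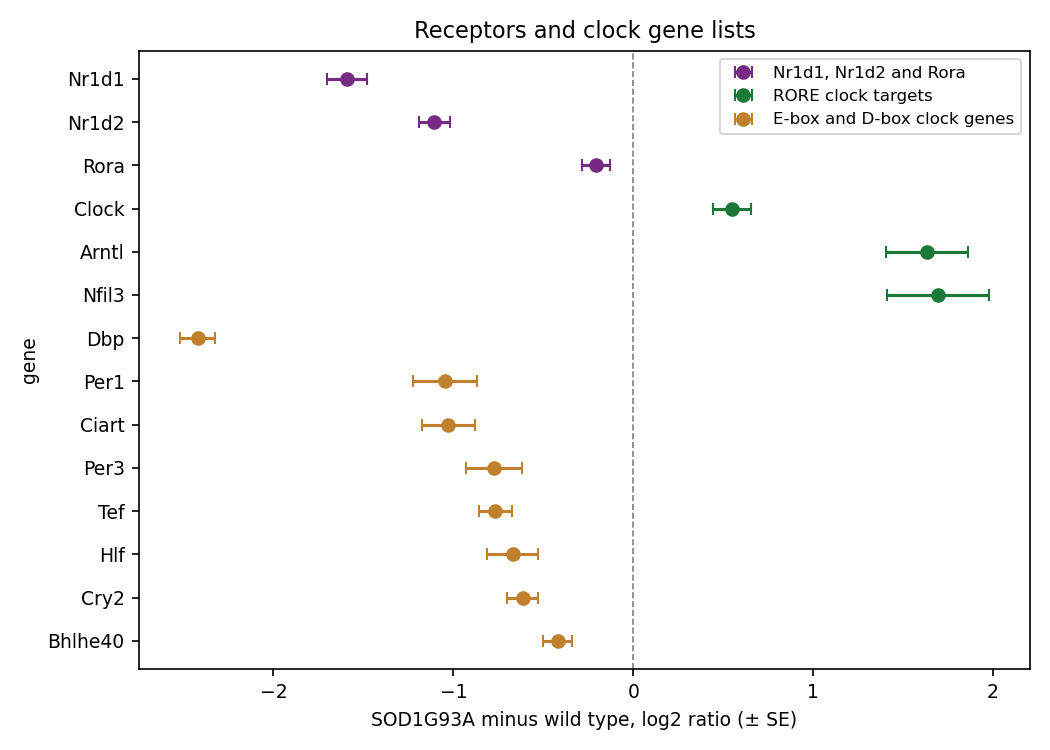
Difference in log2 ratio, SOD1G93A minus wild type (± SE), of Nr1d1, Nr1d2 and Rora, the clock genes listed as controlled through a ROR response element and those listed as driven through an E-box or D-box. The 3 receptors and the E-box or D-box genes lie left of 0 and ROR element genes right of it; the point for Ciart rests on SOD1G93A spots not well above background.

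The proteins that REV-ERB and ROR receptors work with gave no call with limma, and at an unadjusted p under 0.05 there were 0 corepressor and 0 coactivator genes. Of 6 corepressor genes, 4 were higher and 2 lower, between -0.16 and 0.10. Tbl1xr1, a subunit of the NCoR complex, differed by -0.16 with its brightest probe and by 0.38 with its other kept probe. Of 7 coactivator genes, 4 were higher and 3 lower. Ppargc1a, which drives mitochondrial genes, differed by 0.25 ± 0.17 (SE) and Kat2b, an acetyltransferase, by -0.25 ± 0.13 (SE).

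Haem is the ligand of the REV-ERB receptors. Of 11 genes of its synthesis and breakdown, 3 were higher, 8 lower and none called, while 2 had an unadjusted p under 0.05. The largest differences were those of Alas1, the first enzyme of synthesis and itself a clock output in liver, at -0.76 ± 0.26 (SE, adjusted p = 0.312), and Hmox1, which breaks haem down, at 0.71 ± 0.40 (SE, adjusted p = 0.538). In Hmox1 a single wild-type array, replicate 1 at -0.07, lay below the other 7, which read 1.42 to 2.16, and without it the difference was 0.24. The other kept probe of Alas1 differed by -0.26 and that of Hmox1 by 0.17. Of 6 measured genes for the stability of the receptors, 3 were higher, 3 lower and none called, with 1 at an unadjusted p under 0.05. Fbxw7, a ubiquitin ligase subunit, differed by 0.35 ± 0.13 (SE, adjusted p = 0.37) and Siah2, another ubiquitin ligase, by 0.21 ± 0.12 (SE, adjusted p = 0.541). The other kept probe of Fbxw7 differed by 0.14.

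Targets of REV-ERB reported outside the clock, mostly in liver and macrophages, were called in neither direction. Of 12 listed, 6 were measured, 4 higher and 2 lower, with 1 at an unadjusted p under 0.05. Cx3cr1, the fractalkine receptor of macrophages, read 0.66, 1.58, 1.05 and 1.83 in SOD1G93A nerves against 0.16, 0.50, 0.26 and 0.46 in wild-type nerves, a difference of 0.93 ± 0.23 (SE, adjusted p = 0.18) without overlap. Without SOD1G93A replicate 1 it was 1.14 (adjusted p = 0.026), and without any other single array Cx3cr1 was not called (adjusted p = 0.195 to 0.386). Its other kept probes differed by 0.90 and 0.28, and with the mean over its kept probes the difference was 0.71 (adjusted p = 0.331). Lpl, which releases fatty acids from lipoproteins, differed by -0.79 ± 0.46 (SE, adjusted p = 0.541), and by -0.44 without SOD1G93A replicate 4. Of 44 other nuclear receptors, 24 were measured, 12 were higher, 12 lower and none called, with a median difference of 0.004 and 3 at an unadjusted p under 0.05. The largest were those of Pparg, the fat cell receptor, at -0.92 ± 0.42 (SE, adjusted p = 0.449), or -0.54 without wild-type replicate 1, and Nr2f1 (COUP-TFI), a developmental repressor, at 0.51 ± 0.14 (SE, adjusted p = 0.224). The other kept probe of Nr2f1 differed by 0.30.

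Most markers of several cell types differed in the same direction between the genotype means. In whole nerve, fewer cells of a type and less RNA per cell cannot be told apart. Of the markers measured, 7 of 7 for skeletal muscle, 7 of 7 for adipocytes, 7 of 8 for smooth muscle and pericytes and 7 of 8 for endothelial cells were lower in SOD1G93A nerves, while 7 of 8 for macrophages and 8 of 8 for Schwann cells were higher. For fibroblasts 4 of 6 and for red blood cells 3 of 4 were lower. Of all genes, 54.7% were lower and 45.3% higher. None of these genes was called, and each marker list had all its genes above background on at least 1 array. The mean muscle marker value, centred on each gene's mean over the 8 arrays, was -1.03 to -0.68 in SOD1G93A nerves and 2.81, 2.08, -0.74 and -0.58 in wild-type replicates 1 to 4. The mean adipocyte marker value was -1.57 to -0.09 in SOD1G93A nerves and 1.29, 0.99, 0.20 and -0.42 in wild-type replicates 1 to 4. For smooth muscle and pericytes it was 1.09, 0.86, 0.02 and -0.35 in wild-type replicates 1 to 4. In both lists, as for muscle, wild-type replicates 1 and 2 had the highest values of the 8 arrays. The mean Schwann cell marker value was 0.57, -0.01, -0.07 and -0.08 in SOD1G93A replicates 1 to 4. In wild-type replicates 1 to 4 it was -0.37, 0.08, -0.06 and -0.07, so the difference rested on the arrays numbered 1. The mean endothelial marker value separated the genotypes, with -0.45 to -0.11 in SOD1G93A nerves and 0.03 to 0.44 in wild-type nerves. The summed Cy3 intensity of endothelial markers was 5512 to 7253 in SOD1G93A and 7951 to 11131 in wild-type nerves, and that of smooth muscle and pericyte markers 53646 to 60325 in SOD1G93A and 62193 to 120438 in wild-type nerves, both without overlap. Of single genes with a value on every array, 4.32% were lower in log2 ratio without overlap. The mean smooth muscle and pericyte marker value did overlap, with -0.67 to -0.27 in SOD1G93A nerves and -0.35 to 1.09 in wild-type nerves. The summed Cy3 intensity of macrophage markers was 6631 to 14348 in SOD1G93A and 7161 to 9016 in wild-type nerves, and that of adipocyte markers 11600 to 48430 in SOD1G93A and 29731 to 139460 in wild-type nerves. The ranges of macrophage and adipocyte markers overlapped. The part of these cell types in the differences of the receptors, the clock genes, Cx3cr1, Lpl and Pparg was not tested.

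The genes most like Nr1d1 were found by the root mean square distance between centred profiles over the 8 arrays, among 15324 genes. The distance is on the log2 scale, and a flat profile would be 0.81 from Nr1d1. The closest were Gstt2 (0.27), a glutathione transferase, Txnip (0.32), an inhibitor of thioredoxin, Cirbp (0.32), a cold-inducible RNA-binding protein, Chac1 (0.37), which degrades glutathione, and Gkn3 (0.37), a gastrokine. Nr1d2 was 0.32 from Nr1d1, and Rora 0.71. Chac1 was well above background on 2 of the 4 SOD1G93A arrays.

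The 5 genes closest to the sign-turned Nr1d1 profile included Jun (0.34), a transcription factor of injured Schwann cells, Klk1b24 (0.37), a kallikrein, Trem2 (0.39), a macrophage receptor, and Fam134b (0.41), a receptor for breakdown of the endoplasmic reticulum. Gdnf, a trophic factor for motor neurons, was the other, but in wild-type nerves 0 of 4 arrays had it well above background, so no distance or place is given for it. For Klk1b24, 2 of the 4 wild-type arrays did. In all 10 genes the groups did not overlap, a property that a small distance to Nr1d1 nearly fixes.

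**Figure D5:**
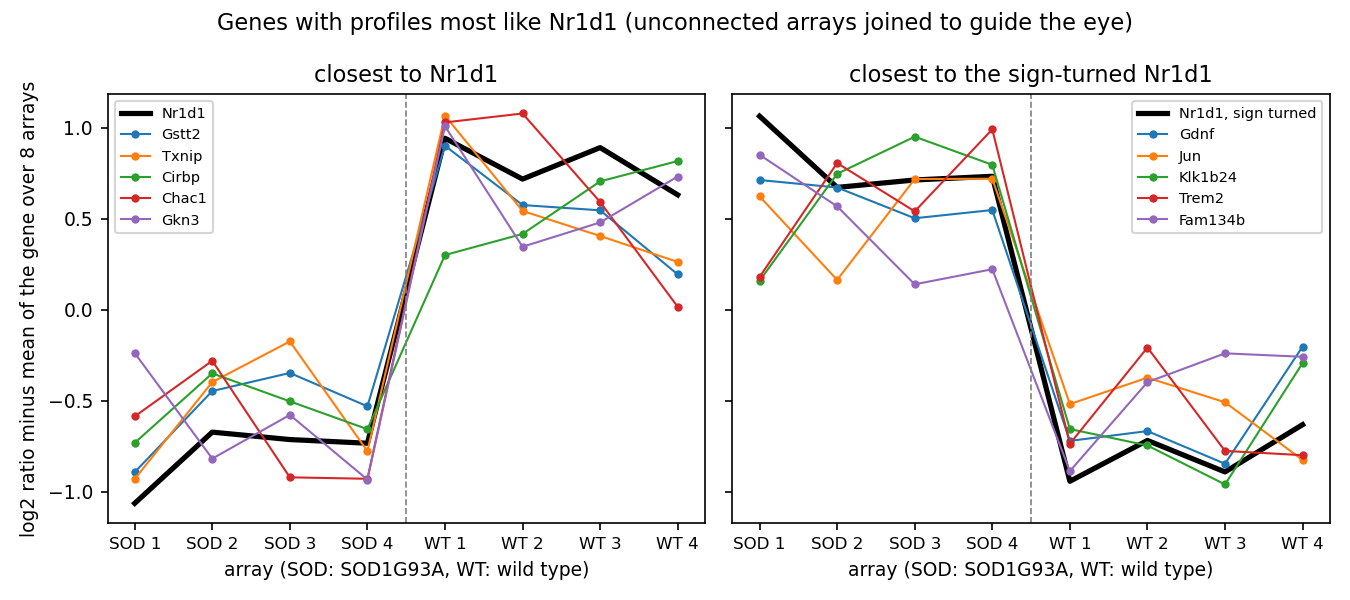
Log2 ratio minus the gene's own mean over the 8 arrays, SOD1G93A arrays at the left of the dashed line and wild-type arrays at its right, for Nr1d1 in black and the 5 genes closest to it (left panel) or to its sign-turned profile (right panel). Lines only join points of 1 gene; distances run from 0.27 to 0.37 in the left panel and, without Gdnf, whose wild-type spots were not well above background, from 0.34 to 0.41 in the right.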

How the data were processed

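Intensity was deposited by the authors as linear spot signals of each dye, beside local background and flags, in scanner files that name Agilent Feature Extraction 11.5.1.1, per the file headers. Version 11.0.1.1 of that program and limma stand in the submitters' processing notes, with no role given. The authors also deposited log10 ratios (Cy5 over Cy3) for the whole series, and these matched the ratio in the scanner files exactly (difference 0). Other deposited values are flags and names.

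Here mean signals were corrected with normexp (offset 50) and loess within arrays. Flagged spots were left out and spots of a probe averaged. Probes were kept if 4 or more of the 8 arrays had them well above background in Cy3, and each gene name was represented by its brightest kept probe, with names and mm9 positions from the files. Log2 ratios of Cy3 over Cy5 were tested with limma 3.58.1 in R 4.3.3 (lmFit, eBayes, 2-sided, Benjamini-Hochberg adjusted p under 0.05 over all genes). All adjusted p-values come from such fits. Between 35.5% and 41.7% of spots per array were well above background, and 0 were saturated. The number of arrays limits the precision.

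The 3 genes and all lists were chosen with earlier results of these data known. Genes named are all of the receptor and ROR element lists, of each other list the 2 called genes per direction of smallest p, or, where none was called, the 2 of largest difference, and the 5 genes nearest to Nr1d1 and to its sign-turned profile, except 2 genes not reported here. Outside this rule, Cry2 and Ciart were named after their values were seen, and Thra and Pdlim1 for their position. The fit was tested on simulated data. The labels do not say whether a shared replicate number marks a pair, so the main fit used no pairing. Deviations of arrays that share a replicate number correlated at -0.16, 0.04, -0.11 and 0.10. For each SOD1G93A array, the highest correlation with a wild-type array of another number was 0.15 to 0.23. These values show no pairing but cannot exclude it. Alternatives covered background correction, the series table, scaling, Cy3 alone, dim and flagged spots, a replicate block, array weights, probe averaging and leaving out each array.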

Additional observations from a re-analysis of the deposited data

Results flagged for a closer look

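In 7 of the 70 groups of 4 arrays looked at (the probes of the 3 genes and the named genes), 1 array lay far from the other 3 by Dixon's test, and chance alone flags about 1 in 20 groups. Among the receptors, Nr1d1 in SOD1G93A replicate 1 was 0.158, below the other SOD1G93A arrays, Nr1d2 probe A_52_P303891 in wild-type replicate 4 was 0.589, above the other wild-type arrays, and the dim Rora probe A_55_P2068006 in SOD1G93A replicate 3 was -0.134. Without SOD1G93A replicate 1, Nr1d1 differed by -1.50. Among other genes, the arrays were SOD1G93A replicate 1 for Nfil3 (-0.805), SOD1G93A replicate 4 for Tef (0.731), wild-type replicate 1 for Fbxw7 (-1.21) and wild-type replicate 2 for Trem2 (1.15). On the first principal component, with 36.4% of the variance, SOD1G93A replicate 1 stood at -30.3 and wild-type replicate 1 at 33.7.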

How the results depend on the processing

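The difference of Nr1d1 stayed between -1.82 and -1.45, that of Nr1d2 between -1.20 and -1.05 and that of Rora between -0.30 and -0.17 over 19 alternatives. Only Cy3 alone moved Nr1d1 (-1.82) and Rora (-0.30) by more than their spread within groups. With 1 array left out at a time, Nr1d1 ran from -1.65 to -1.50, Nr1d2 from -1.15 to -1.07 and Rora from -0.25 to -0.17. Counts of genes called were far less steady. The 25 genes became 7 with the scanner's processed signals and 7 with the series table, which hold nearly the same values, 16 with no filter on dim probes, 416 with array weights and 234 with the arrays numbered 2 to 4, chosen after seeing the data. Leaving out 1 array gave 3 genes (without SOD1G93A replicate 4, wild-type replicate 2 or wild-type replicate 3) to 180 (without SOD1G93A replicate 1), and 6 to 197 probes against 34. The reference channel gave 4 to 18 genes against 33. The nerve and pool comparison gave 11122 to 12052 genes in SOD1G93A and 10914 to 12500 in wild-type nerves. With a replicate block, for a pairing that the labels do not state, 1 gene (Dbp) and 2 probes were called. Tbl1xr1 turned to 0.11 with the mean over its kept probes, which differ in sign. The cause of the other changes was not tested. Signal over background limits Rorb, Ciart and the second Rora probe.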
